A study of Mus musculus with 6 samples.

Results

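The BCL-2 family genes Bcl2, Bcl2l1, Bcl2l2, Mcl1, Bak1, Bax, Bcl2l11, Bid, Bad and Bbc3 were followed in purified mouse platelets. They were taken by gene symbol, through the Entrez identifiers of the count tables, and all 10 were among the 9822 genes listed. The platelets came from males of the BalB/c background that were either Nxf1+/C587R, carrying 1 copy of the C587R change in the mRNA export receptor gene Nxf1, or wild type. Each of the 6 polyA RNA libraries was a pool of platelet suspensions of 1 genotype, 3 pools per genotype, and each of the 3 labelled batches held 1 mutant and 1 wild-type pool. Pools were prepared on 3 distinct days, the Nxf1 change is present in all cells of the animal and not in platelets alone, and neither the age nor the number of animals in a pool is given in the sources used here. The labels name no treatment.

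Platelets have no nucleus and live on the RNA and protein that megakaryocytes pack into them. The BCL-2 family sets how long they survive in blood: the pro-survival protein BCL-XL, made from Bcl2l1, holds back the effectors BAK and BAX, and when this restraint fails the effectors permeabilise the outer mitochondrial membrane, cytochrome c escapes and caspases are activated. BAK is the main effector in mouse platelets, with a smaller part for BAX. BH3-only proteins (BIM from Bcl2l11, BID, BAD and PUMA from Bbc3) bind the pro-survival proteins through a short BH3 helix, and some of them also activate BAK and BAX directly.

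All 10 members share a BH3 stretch, shown here because it is the part through which the groups of the family bind each other. The coding windows below are 45 bases long, read 5′ to 3′ from GENCODE M21 transcripts of GRCm38. Each window holds a BH3 core of 7 codons with 4 codons on either side, and the capitals mark core positions 1, 5 and 6.
Bcl2: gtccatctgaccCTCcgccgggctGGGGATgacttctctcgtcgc
Bcl2l1: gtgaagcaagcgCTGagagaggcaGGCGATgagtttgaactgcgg
Bcl2l2: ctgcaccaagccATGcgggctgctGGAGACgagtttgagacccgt
Mcl1: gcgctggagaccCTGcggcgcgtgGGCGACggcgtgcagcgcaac
Bak1: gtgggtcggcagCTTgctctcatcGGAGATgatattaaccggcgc
Bax: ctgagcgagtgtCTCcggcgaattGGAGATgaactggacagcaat
Bcl2l11: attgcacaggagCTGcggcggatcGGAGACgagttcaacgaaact
Bid: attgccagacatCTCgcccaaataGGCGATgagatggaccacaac
Bad: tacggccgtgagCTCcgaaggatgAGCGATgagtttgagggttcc
Bbc3: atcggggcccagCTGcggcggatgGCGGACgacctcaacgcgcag
The core was searched in coding transcripts with a whole reading frame that starts at ATG. The pattern allowed leucine or methionine at position 1 and glycine, alanine or serine at position 5. It required aspartate at position 6, then aspartate, glutamate or glycine. In the longest transcript that held it, the core was found at 1 place in each of the 10 genes. The window lay within 1 exon in every gene, in exon 1 of Bcl2 and Mcl1, exon 2 of Bcl2l1, exon 4 of Bak1 and Bid, and exon 3 of the others. Bcl2l1 and Bcl2l2, both pro-survival, shared 28 of the 45 bases, as did the BH3-only genes Bcl2l11 and Bbc3, and these were the most alike of all windows. Bcl2l2 and Bid were least alike, with 15 of 45 bases. The core was present in 6 of 7 coding transcripts of Bcl2l1, 4 of 5 of Bcl2l11, 3 of 4 of Bcl2l2 and 2 of 3 of Bax, and in every coding transcript searched of the other 6 genes. The counts are per gene and do not tell such transcripts apart. Spans of Bcl2l1 and Cox4i2 overlap by 6308 bases on opposite strands and those of Bcl2l11 and Acoxl by 215 bases. Neither neighbour was among the genes listed, so its level is not known here. Values of Bcl2l1 and Bcl2l11 may hold reads of these neighbours, which was not tested. The same limit holds for Bcl2 and Bid, which overlap the unlisted genes Gm37053 (11183 bases) and Gm17812 (988 bases).

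Libraries held 25189231 to 29421549 counts, and a member had between 78 counts (Bcl2) and 8793 counts (Bcl2l1) in a library. Levels are CPM, counts scaled to the library total after TMM adjustment, and levels of different genes are compared as CPM per kb of the deposited gene length. Nxf1 itself had 2.61 to 4.30 CPM in mutant and 3.08 to 4.94 CPM in wild-type pools (adjusted p = 0.604, edgeR), which does not check the labels because a missense change need not alter a transcript's level. All 8 platelet markers looked for were present, with a summed level of 37250 to 41790 CPM in mutant and 30200 to 37410 CPM in wild-type pools. The sum joins genes that moved apart. At an adjusted p under 0.05 by edgeR, Ppbp and Gp6 were higher (log2 fold change 0.61 and 0.42) and Gp9 lower (-0.40). The other 5 were not called, and of all genes 12.9% were called higher and 9.16% lower. The 6 erythroid markers listed summed to 31510 CPM in the mutant and 35710 CPM in the wild-type pool of batch 1, and to between 3968 and 4559 CPM in the other 4 pools, so both pools of batch 1 stood apart.

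In platelets of Nxf1+/C587R mice, 5 of the 10 BCL-2 family transcripts differed from wild type. Bcl2l1 and the effector gene Bak1 rose, and Bcl2, its relative Bcl2l2 and the BH3-only gene Bcl2l11 fell. Bax, Bid, Bad, Bbc3 and Mcl1 did not pass the test (quasi-likelihood test of edgeR, p-values adjusted over all 9822 genes by Benjamini-Hochberg, threshold 0.05). Of all genes tested, 22.1% were called, 12.9% higher and 9.16% lower in the mutant. The members' median log2 fold change was -0.11, beside -0.04 over all genes, and their median absolute log2 fold change was 0.43, beside 0.27. Genotypes did not overlap in CPM for 5 members (Bcl2, Bcl2l1, Bak1, Bcl2l11 and Bad), while 36.3% of all genes showed no overlap, 20.4% with the mutant above and 15.9% with the mutant below. With the batch as a replicate block 7 members passed by edgeR, where 40% of all genes were called, and 6 by DESeq2, where 28.1% were called, 17.8% higher and 10.3% lower. Without mutant replicate 1, without both pools of batch 1 or without both pools of batch 2, 3 members were called, and these were Bak1, Bcl2 and Bcl2l11. In those fits, which had no batch term, 15.2%, 12.2% and 10.2% of all genes were called.

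**Figure D1:**
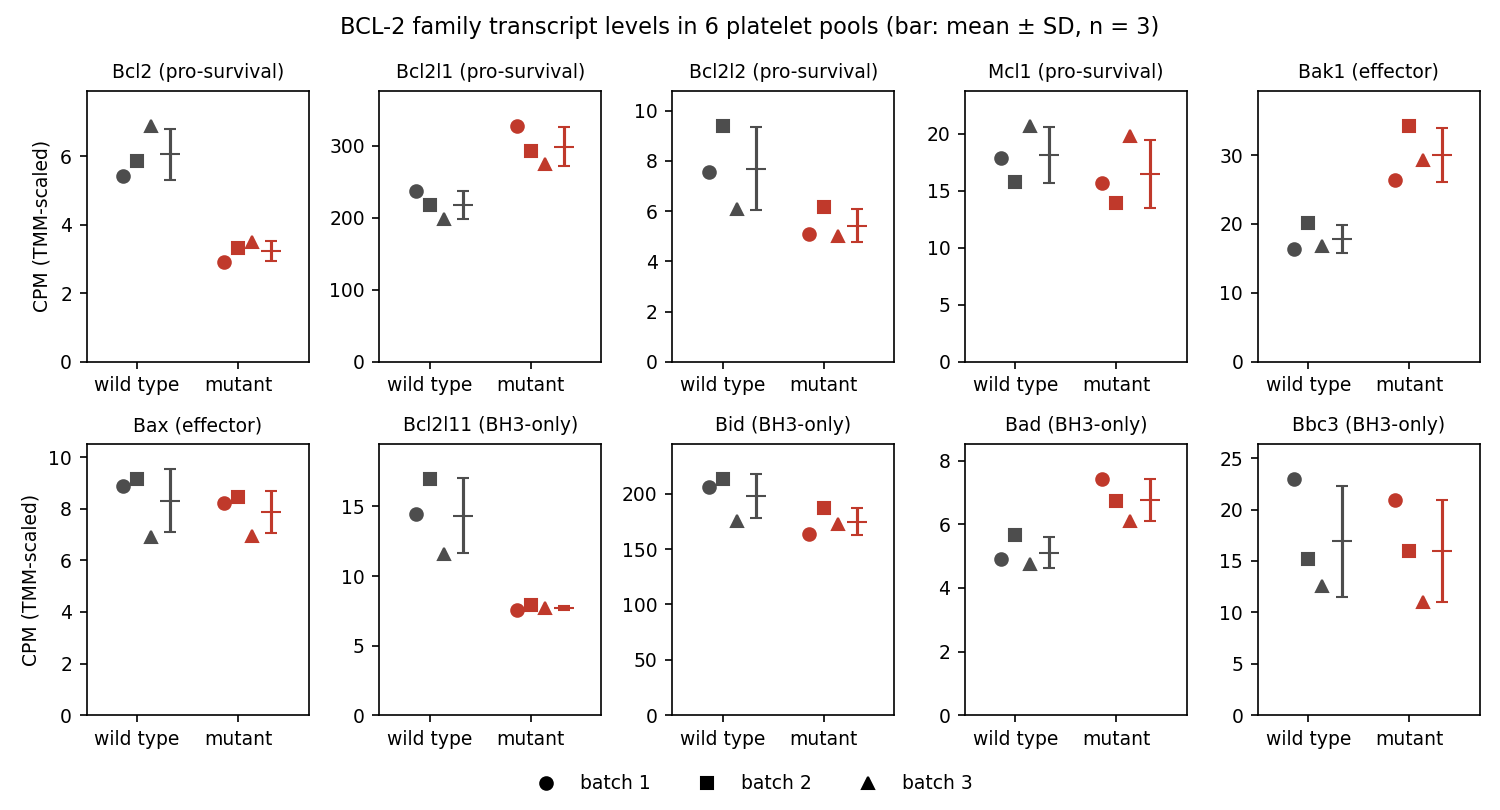
CPM of each BCL-2 family member in the 6 platelet pools, with 1 symbol per batch, the wild type on the left and the mutant on the right of each panel, and the mean ± SD (n = 3) beside the points. Every mutant pool lies above every wild-type pool for Bcl2l1, Bak1 and Bad and below for Bcl2 and Bcl2l11.

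Among the pro-survival genes, Bcl2l1 (Entrez 12048, chromosome 2, 152758732 to 152833803, mm10) was the most abundant. It had 327.8, 293.6 and 274.8 CPM in the mutant pools of batches 1, 2 and 3, and 237.0, 218.2 and 198.7 CPM in the wild-type pools. The lowest mutant pool was above the highest wild-type pool, and within each genotype the pool of batch 1 was highest. By edgeR the log2 fold change came to 0.45 ± 0.11 (SE) with an adjusted p of 0.00635, and the differences within batches were 0.47, 0.43 and 0.47. In fits without the batch term, the call was lost without mutant replicate 1 (log2 fold change 0.34, adjusted p = 0.141, edgeR) and without mutant replicate 2 (0.42, 0.0662). It was also lost, again with no batch term, without both pools of batch 1 (0.41, 0.158) and without both pools of batch 2 (0.43, 0.159). With all pools and the batch as a replicate block, Bcl2l1 passed (adjusted p = 1.31e-10 by edgeR and 1.28e-15 by DESeq2).

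Bcl2 (Entrez 12043, chromosome 1, 106538176 to 106714290), the founding survival gene of the family, was the least abundant member per kb of gene length. In CPM, Bad was lower than Bcl2 in every wild-type pool. Bcl2 had 2.91, 3.31 and 3.49 CPM in the mutant pools and 5.41, 5.86 and 6.88 CPM in the wild-type pools of batches 1, 2 and 3. These rest on 78, 81 and 94 counts in the mutant and 140, 141 and 213 counts in the wild type. The groups did not overlap, and the pool of batch 3 was highest in each genotype. Its genotype difference was -0.91 ± 0.17 on the log2 scale (SE; edgeR, adjusted p = 0.000502) and -0.90, -0.83 and -0.98 within batches, and it was called in all 19 alternatives (adjusted p from 6.12e-11 to 0.00965).

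Bcl2 is abundant in lymphocytes, and B cell transcripts moved the same way in these pools. All 10 B cell markers looked for were listed, 4 of them fell (Cd79a, Igkc, H2-Aa and Cd74, with log2 fold changes of -0.54, -0.50, -0.48 and -0.45) and 0 rose, where 9.16% of all genes fell. Their summed level was 256.9 to 326.6 CPM in mutant and 331.3 to 444.7 CPM in wild-type pools, and its log2 differences within batches were -0.39, -0.31 and -0.45, smaller than those of Bcl2 in each batch. The 7 T and NK cell markers listed, of 8, summed to 12.7 to 14.8 CPM in mutant and 14.5 to 15.1 CPM in wild-type pools, with Cd3e not among the genes listed. This sum joins genes that moved apart, and 0 were called by edgeR without the batch term. With the batch as a replicate block, edgeR called Nkg7 higher (log2 fold change 0.42 without the block, adjusted p = 0.00416 with it). It called Trac and Cd8a lower (-0.46 and -0.71, adjusted p = 0.00181 and 0.0325), and DESeq2 with the block called 0. Ptprc, which marks all leukocytes, had 6.82 to 8.27 and 7.44 to 9.72 CPM. The part of leukocyte RNA in the Bcl2 difference was not tested. In a pool, fewer cells of a type and less RNA per cell cannot be told apart.

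Bcl2l2 (Entrez 12050, chromosome 14, 54883366 to 54890858), which encodes the pro-survival protein BCL-W, had 5.11, 6.17 and 5.01 CPM in the mutant pools and 7.58, 9.40 and 6.10 CPM in the wild-type pools of batches 1, 2 and 3. The mutant pool was lower in each batch, but the groups overlapped, since the wild-type pool of batch 3 was below the mutant pool of batch 2. In the edgeR fit Bcl2l2 had a log2 fold change of -0.50 ± 0.17 (SE) at an adjusted p of 0.0412. The call was lost by DESeq2 (adjusted p = 0.0596), by limma-voom (0.053) and in 6 of 9 edgeR fits that left out a pool or a batch, with the highest adjusted p, 0.209, without batch 2. Those 6 fits left out mutant replicate 1 or 3, wild-type replicate 1 or 2, or batch 1 or 2, and had no batch term. With all pools and the batch as a replicate block Bcl2l2 passed (adjusted p = 7.4e-05 by edgeR and 0.0226 by DESeq2).

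Mcl1 (Entrez 17210, chromosome 3, 95656944 to 95663179), whose short-lived product guards megakaryocytes together with BCL-XL, had 15.7, 13.9 and 19.8 CPM in the mutant and 17.9, 15.8 and 20.7 CPM in the wild-type pools. The groups overlapped, and batch 3 was highest and batch 2 lowest in both genotypes. Its log2 difference of -0.14 did not pass (95% interval -0.44 to 0.16, adjusted p = 0.541, edgeR).

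Of the effectors, Bak1 (Entrez 12018, chromosome 17, 27019812 to 27028627) had 26.4, 34.2 and 29.3 CPM in the mutant pools and 16.4, 20.1 and 16.9 CPM in the wild-type pools of batches 1, 2 and 3. Every mutant pool was above every wild-type pool, and batch 2 was highest in each genotype. Mutant over wild type, Bak1 had a log2 fold change of 0.75 ± 0.13 (SE; edgeR, adjusted p = 0.000248), and 0.69, 0.77 and 0.80 within batches. It was called in all 19 alternatives, at a log2 fold change of 0.60 to 0.81. Bak1 lies on the minus strand inside the span of Ggnbp1 on the plus strand, a gene not among those listed, and the TruSeq RNA v2 kit of these libraries keeps no strand information. Reads from both genes cannot be told apart, so the value of Bak1 is uncertain to that extent.

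Bax (Entrez 12028, chromosome 7, 45461695 to 45466903) had 8.24, 8.45 and 6.94 CPM in the mutant and 8.89, 9.15 and 6.91 CPM in the wild-type pools. The groups overlapped, and the pool of batch 3 was lowest in both. Bax did not pass, at a log2 fold change of -0.08 (95% interval -0.39 to 0.24, adjusted p = 0.778, edgeR). The interval of Bax ended below that of Bak1, which ran from 0.49 to 1.02.

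Bcl2l11 (Entrez 12125, chromosome 2, 128126038 to 128162547) was the BH3-only gene with the largest difference. It had 7.57, 7.88 and 7.71 CPM in the mutant pools and 14.4, 17.0 and 11.6 CPM in the wild-type pools of batches 1, 2 and 3. The mutant pools lay close together and all below the wild-type pools, which spread more. In log2 terms it fell by 0.89 ± 0.15 (SE; edgeR, adjusted p = 0.00018), with differences of -0.93, -1.11 and -0.58 within batches, and it was called in all 19 alternatives (adjusted p from 4.74e-19 to 0.00656).

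Bid (Entrez 12122, chromosome 6, 120893119 to 120917062), which links death receptors to mitochondria once caspase-8 has cut its product, had 164.0, 187.5 and 173.0 CPM in the mutant and 205.9, 213.2 and 175.8 CPM in the wild-type pools. The mutant pool was lower in each batch, with log2 differences of -0.33, -0.18 and -0.02, but the groups overlapped. Bid did not pass without the batch term (log2 fold change -0.18 ± 0.11, SE; edgeR, adjusted p = 0.291). With the batch as a replicate block it passed (adjusted p = 0.0222 by edgeR and 0.0253 by DESeq2).

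Bad (Entrez 12015, chromosome 19, 6941861 to 6951905), whose product is held by 14-3-3 proteins while it is phosphorylated, had 7.42, 6.74 and 6.12 CPM in the mutant and 4.91, 5.65 and 4.75 CPM in the wild-type pools. The groups did not overlap. Its difference of 0.41 ± 0.15 on the log2 scale (SE) did not pass (edgeR, adjusted p = 0.0659), and with the batch as a replicate block Bad passed by edgeR (adjusted p = 0.00199) and not by DESeq2 (0.0912). The first 590 bases of its span are shared with Gpr137 on the opposite strand, which rose from 10.7 to 16.5 CPM (log2 fold change 0.62, adjusted p = 0.0014, edgeR). With no strand information the value of Bad is uncertain too, and the part of Gpr137 reads in it was not tested. Bad ends 1.81 Mb before Nxf1 on the same chromosome.

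Bbc3 (Entrez 170770, chromosome 7, 16308398 to 16318334), the gene of PUMA, had 20.9, 16.0 and 11.0 CPM in the mutant and 23.0, 15.2 and 12.6 CPM in the wild-type pools of batches 1, 2 and 3. Both genotypes were highest in batch 1 and lowest in batch 3, and the groups overlapped. Genotype made a log2 difference of -0.08 (95% interval -0.80 to 0.64, adjusted p = 0.885, edgeR), the widest interval of the 10 members.

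**Figure D2:**
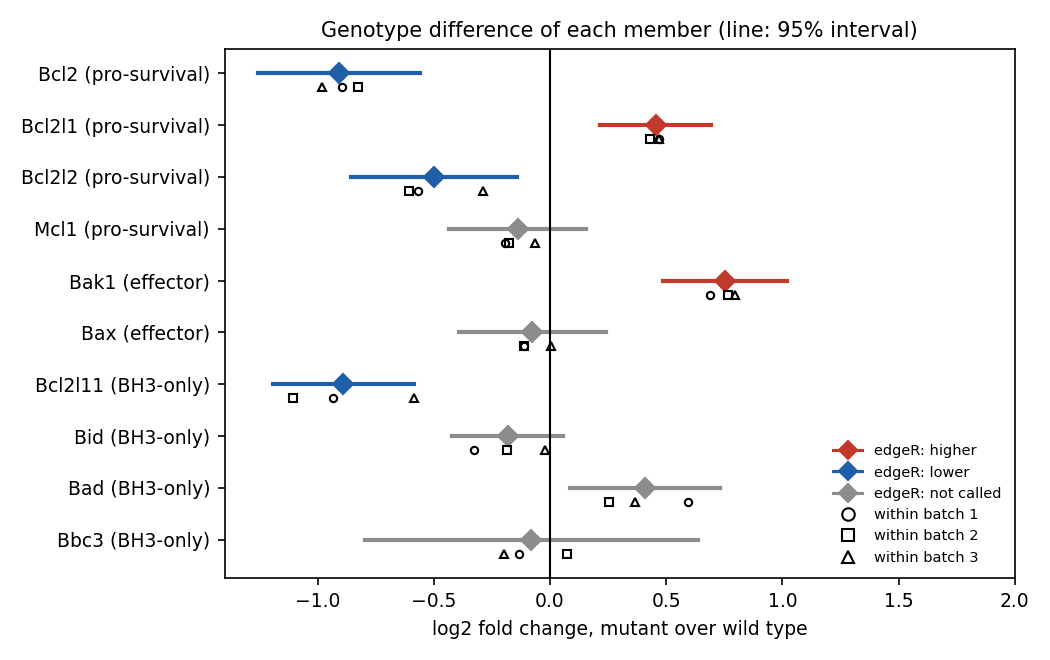
Log2 fold change of each member, mutant over wild type, from edgeR with genotype as the only term (diamond) with its 95% interval (line), and the difference within each batch (open symbols). The lines of Bcl2, Bcl2l2 and Bcl2l11 lie below 0, those of Bcl2l1, Bak1 and Bad above 0, and Bad did not pass after adjustment over all genes.

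Compared per length, the members fell into a steep order. In wild-type platelets Bid had 104.8 ± 10.5 and Bcl2l1 91.9 ± 8.09 CPM per kb (SD, n = 3 each), above 95.3% and 94.9% of all listed genes. Bax followed at 9.57 ± 1.41, Bak1 at 8.89 ± 1.02, Bbc3 at 8.56 ± 2.73, Mcl1 at 5.19 ± 0.706, Bad at 3.52 ± 0.333, Bcl2l11 at 2.84 ± 0.536, Bcl2l2 at 2.22 ± 0.476 and Bcl2 at 0.781 ± 0.0971 CPM per kb. Wild-type pools of neighbours in this order overlapped for Bid and Bcl2l1, for Bax and Bak1, for Bak1 and Bbc3, for Bad and Bcl2l11, and for Bcl2l11 and Bcl2l2. The other neighbours were apart.

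In mutant platelets Bcl2l1 came first with 126.0 ± 11.3 CPM per kb and Bid second with 92.5 ± 6.27 (SD, n = 3 each), and the pools of these genes did not overlap. Per kb, Bid was above Bcl2l1 in 3 of 3 wild-type pools, and Bcl2l1 was above Bid in 3 of 3 mutant pools. This change of order depends on the deposited gene lengths (2371 bases for Bcl2l1 and 1891 for Bid). In CPM without division by length, Bcl2l1 was above Bid in every pool of both genotypes. Bak1 came next, at 15.0 ± 1.97 CPM per kb, with every pool above those of Bax at 9.06 ± 0.946. Below Bax came Bbc3 at 8.08 ± 2.52 CPM per kb, whose mutant pools overlapped those of Bax and those of Mcl1. Then came Mcl1 and Bad at 4.72 ± 0.860 and 4.66 ± 0.448 CPM per kb, whose mutant pools overlapped each other. Mcl1 was above Bad in 1 of 3 mutant and 3 of 3 wild-type pools. Bcl2l2 and Bcl2l11, at 1.57 ± 0.186 and 1.53 ± 0.0312 CPM per kb, also overlapped, with Bcl2l2 above Bcl2l11 in 1 of 3 mutant pools. Bcl2 was last in both genotypes.

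**Figure D3:**
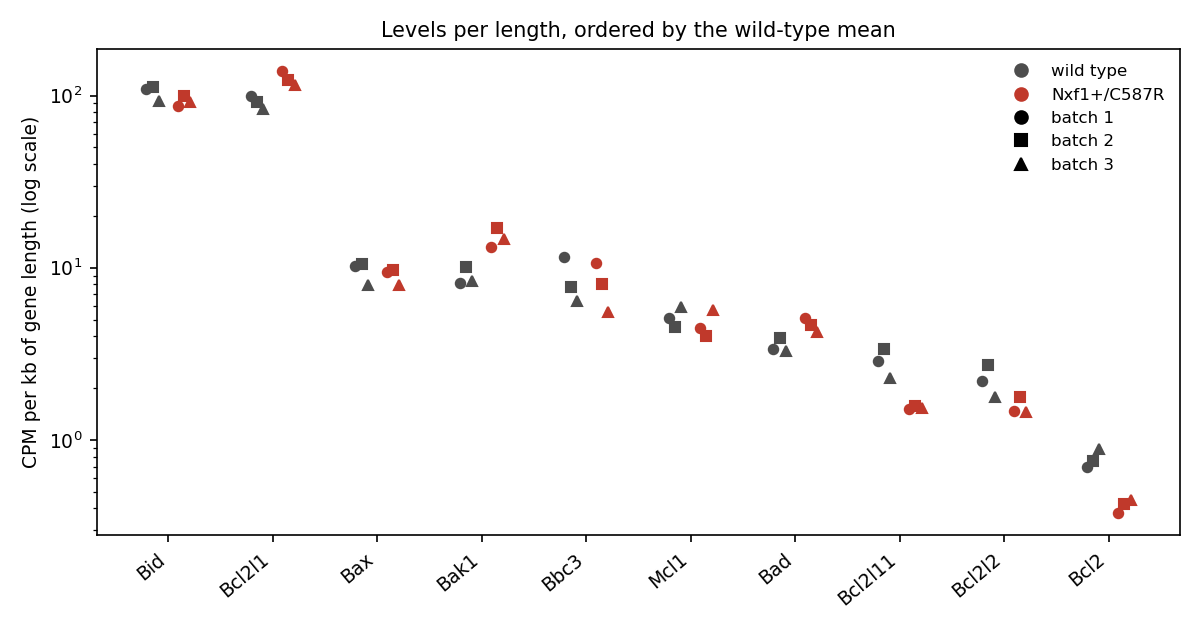
Levels as CPM per kb of gene length on a log axis, 1 point per pool, with genes ordered by the wild-type mean and batches by symbol. Bid and Bcl2l1 stand near 100 CPM per kb and change order between genotypes on this scale, though not in CPM. Bcl2 is below 1 in all 6 pools.

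Summed by role, the 4 pro-survival genes made up 53.3, 48.1 and 49.6% of the members' CPM per kb in the mutant pools of batches 1, 2 and 3 and 42.7, 40.3 and 43.2% in the wild-type pools. The groups did not overlap. Bcl2l1 alone held 47.8 ± 2.79% in the mutant and 38.6 ± 1.33% in the wild type (SD, n = 3 each), so the lower Bcl2 and Bcl2l2 weighed little in this sum. The effectors held 9.12 ± 0.781% in the mutant and 7.74 ± 0.511% in the wild type, and the 4 BH3-only genes 40.5 ± 1.94% and 50.2 ± 1.17%. Bid made up most of the BH3-only share, with 35.2 ± 2.74% and 43.98 ± 1.27% of the members' sum. Shares of 1 sum are tied, so a larger share of Bcl2l1 makes the other shares smaller. In CPM per kb the BH3-only genes summed to 104.0, 113.5 and 102.8 in the mutant pools of batches 1, 2 and 3. In the wild-type pools they summed to 126.7, 127.7 and 104.9, and the groups overlapped. The shares and sums depend on the deposited gene lengths and are given with no test.

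Ratios between members of a library do not depend on library scaling. The ratio of Bcl2l1 to Bak1, the survival gene and the effector that it restrains in platelets, was 10.5, 7.24 and 7.92 in the mutant pools and 12.2, 9.16 and 9.95 in the wild-type pools of batches 1, 2 and 3. It was lower in the mutant within every batch, with log2 differences of -0.22, -0.34 and -0.33, but the groups overlapped. The ratio of Bcl2l1 to Bax was 14.6, 12.7 and 14.5 in the mutant and 9.77, 8.74 and 10.5 in the wild type, with no overlap.

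Bak1 to Bax was 1.39, 1.76 and 1.83 in the mutant pools and 0.800, 0.955 and 1.06 in the wild-type pools, also with no overlap. Of the 6 ratios formed, the largest differences were those of Bcl2l1 to Bcl2 (305.4 ± 56.96 in the mutant and 119.7 ± 24.4 in the wild type) and of Bcl2l1 to Bcl2l11 (82.3 ± 8.61 and 32.9 ± 4.89; SD, n = 3 each). Bcl2 and Bcl2l11 fell side by side, and their ratio to each other was 0.272 ± 0.0220 in the mutant and 0.285 ± 0.0887 in the wild type, with overlapping pools.

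**Figure D4:**
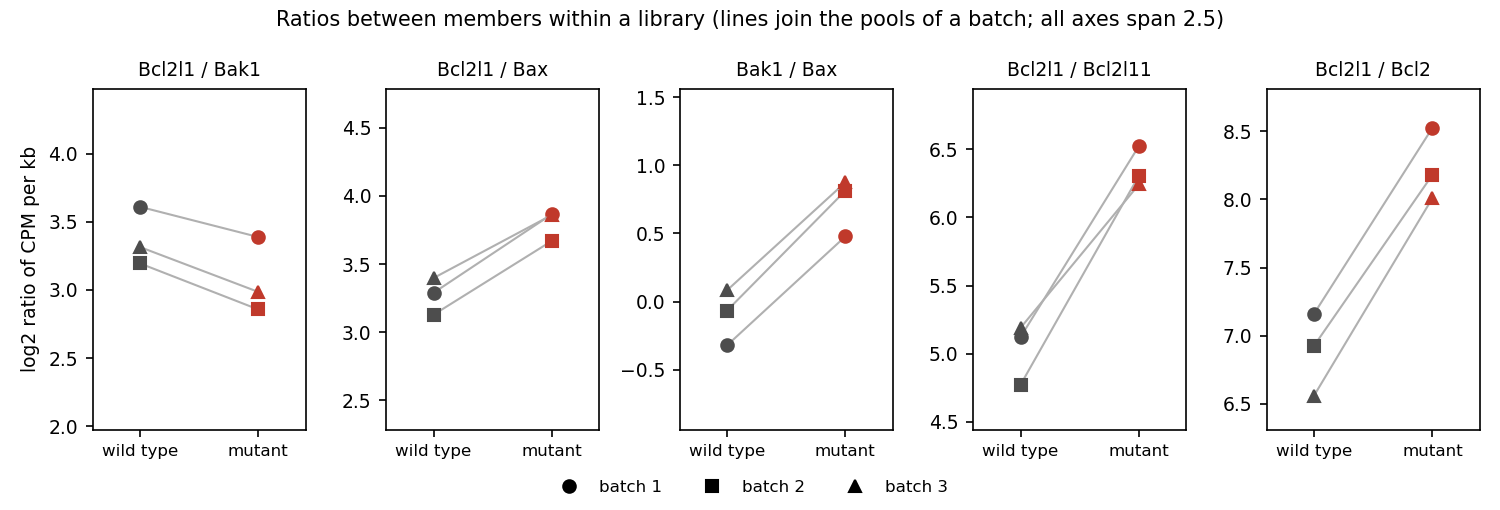
Log2 ratios of CPM per kb between members within a library, with lines joining the mutant and wild-type pool of a batch and every axis spanning the same range. Bcl2l1 over Bak1 falls along each line, while the other 4 ratios rise along each line with no overlap between genotypes.

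Promoter windows are shown for Bcl2 and Bcl2l11, which fell by a like amount, and for Bak1, the member with the largest rise. Each is the RefSeq window of 300 bases on GRCm38.p6, from 250 bases before to 50 bases after the annotated start, read 5′ to 3′ on the gene's strand. Capitals mark matches, on either strand, to the GC box letters GGGCGG, the FOXO letters GTAAACA, the ETS letters CCGGAAG and the GATA letters AGATAA.
Bcl2 (chr1:106714241-106714540, minus strand): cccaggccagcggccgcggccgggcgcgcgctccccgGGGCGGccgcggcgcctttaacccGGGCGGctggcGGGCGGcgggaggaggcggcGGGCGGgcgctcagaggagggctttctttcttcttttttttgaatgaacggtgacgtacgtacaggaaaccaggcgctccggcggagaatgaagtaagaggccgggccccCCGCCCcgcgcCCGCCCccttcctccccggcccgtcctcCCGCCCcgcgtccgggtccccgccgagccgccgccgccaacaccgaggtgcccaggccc
Bcl2l11 (chr2:128125788-128126087, plus strand): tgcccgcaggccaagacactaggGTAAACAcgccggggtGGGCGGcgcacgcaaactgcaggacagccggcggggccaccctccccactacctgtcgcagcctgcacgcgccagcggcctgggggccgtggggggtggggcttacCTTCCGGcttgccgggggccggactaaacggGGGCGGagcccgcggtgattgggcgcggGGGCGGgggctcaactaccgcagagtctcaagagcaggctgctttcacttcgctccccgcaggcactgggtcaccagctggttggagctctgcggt
Bak1 (chr17:27028578-27028877, minus strand): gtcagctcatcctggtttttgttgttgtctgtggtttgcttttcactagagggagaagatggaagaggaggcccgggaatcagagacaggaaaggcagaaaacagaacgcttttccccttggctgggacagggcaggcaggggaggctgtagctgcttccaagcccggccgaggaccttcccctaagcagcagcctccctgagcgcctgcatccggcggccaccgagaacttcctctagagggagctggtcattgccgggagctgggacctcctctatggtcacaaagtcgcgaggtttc
The Bcl2 window held 7 GC box matches and no match to the other motifs. Of its bases 76.0% were G or C, beside a median of 52.67% over all promoter windows. The Bcl2l11 window held 3 GC box matches, 1 FOXO match and 1 ETS match. The Bak1 window held no match to any of the 4 motifs. Members that were not called held GC box matches too: 5, 4 and 7 in the windows of Bbc3, 4 and 0 in those of Bad. Bax and Bid held 3 each and Mcl1 held 1. Of the other called members, Bcl2l2, which fell, held 1, and Bcl2l1, which rose, held 0 in each window. Of 32851 promoter windows of the same length, 35.7% held the GC box letters, 3.65% the FOXO letters, 8.86% the ETS letters and 11.2% the GATA letters. Bcl2l11 has a second annotated start, whose window held 3 GC box matches and no FOXO match. Such matches describe the letters alone, and these libraries do not measure which start was used.

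Other genes of intrinsic apoptosis, taken from a fixed list, were mostly not called. Of 50 genes, 38 were listed in the tables, 5 rose and 1 fell, and 32 did not pass (edgeR, beside 12.9% of all genes higher and 9.16% lower). The list's median log2 fold change was 0.03. With the batch as a replicate block 9 were higher and 5 lower by edgeR, where 22% and 18% of all genes were called. Without batch 2 only Vdac3 was called, beside 10.2% of all genes. Without batch 1 or wild-type replicate 2 there were 2 calls, beside 12.2% and 17.4% of all genes. Without mutant replicate 1 or 2 there were 3, beside 15.2% and 14.1%, and without batch 3 there were 9, beside 24.4%.

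Most of the calls were among the 16 regulators of the family, of which 4 rose and 1 fell (6 and 3 with the batch as a replicate block by edgeR). The block added Vdac1 and Ywhaz as higher, by edgeR (adjusted p = 0.00832 and 0.00888) and by DESeq2 (0.0131 and 0.00254), and Ywhaq and Trp53 as lower by edgeR alone (0.0346 and 0.00169, beside 0.258 and 0.148 by DESeq2). Foxo3, a transcription factor known to drive Bcl2l11, had 24.2, 25.5 and 21.9 CPM in the mutant and 16.5, 14.6 and 15.5 CPM in the wild-type pools, with no overlap. By edgeR it rose by 0.62 ± 0.12 on the log2 scale (SE; adjusted p = 0.000689), opposite in sign to that of Bcl2l11, and it was not called without batch 2 (0.49, adjusted p = 0.09). Vdac3, an outer mitochondrial membrane channel, had 55.7, 53.6 and 52.4 CPM in the mutant and 37.0, 37.9 and 31.2 CPM in the wild type (log2 fold change 0.61 ± 0.12, adjusted p = 0.000667, edgeR) and was called in all 19 alternatives. Its relative Vdac2, which holds BAK at mitochondria, stood at 0.22 on the log2 scale and did not pass (adjusted p = 0.267).

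Ywhah, of the 14-3-3 proteins that can hold BAD, rose from 633.0 ± 66.6 to 809.6 ± 82.5 CPM (SD, n = 3 each; adjusted p = 0.0418, edgeR), while the other 5 14-3-3 genes of the list were not called without the block. The dynein light chain genes, whose products can hold BIM and BMF, moved apart: Dynll2 rose by 0.44 and Dynll1 fell by 0.40 on the log2 scale (adjusted p = 0.0123 and 0.0354, edgeR). Calls were lost in 9 alternatives for Ywhah (highest adjusted p = 0.402), in 7 for Dynll1 (0.21) and in 5 for Dynll2 (0.27).

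Downstream of mitochondria, Xiap, an inhibitor of caspases, rose from 52.0 ± 6.93 to 70.6 ± 2.70 CPM (SD, n = 3 each; log2 fold change 0.44, adjusted p = 0.0113, edgeR) and was the only 1 of 12 genes called without the batch term. With the batch as a replicate block edgeR also called Htra2 and Casp6 higher (adjusted p = 0.00401 and 0.0199) and Birc2 and Cycs lower (0.00194 and 0.0362). Of these, DESeq2 with the block called Birc2 (1.64e-05) and gave no adjusted p for Cycs. The call of Xiap was lost in 5 alternatives (highest adjusted p = 0.184). Casp9 and Apaf1, of the apoptosome, had log2 fold changes of -0.01 and -0.03 and were called by neither fit. Cycs, the cytochrome c gene, had the lowest log2 fold change of this subgroup, -0.79, at 0.482 and 0.846 CPM (adjusted p = 0.0834 without the batch term). Of the 6 further BCL-2 family genes listed, 0 were called by edgeR, DESeq2 or limma-voom and 0 had an unadjusted p under 0.05 by edgeR. Their log2 fold changes ran from -0.54 in Bcl2a1d, a member of a set of near-identical copies and therefore uncertain, to 0.26 in Pmaip1. DESeq2 gave no adjusted p for Bcl2a1d and Pmaip1 and so could not call them. Of the death receptor arm Fadd, Casp8 and Cflar were listed, 0 were called by edgeR, DESeq2 or limma-voom and 0 had an unadjusted p under 0.05 by edgeR. The scramblase gene Ano6 had 0.15 (adjusted p = 0.399).

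**Figure D5:**
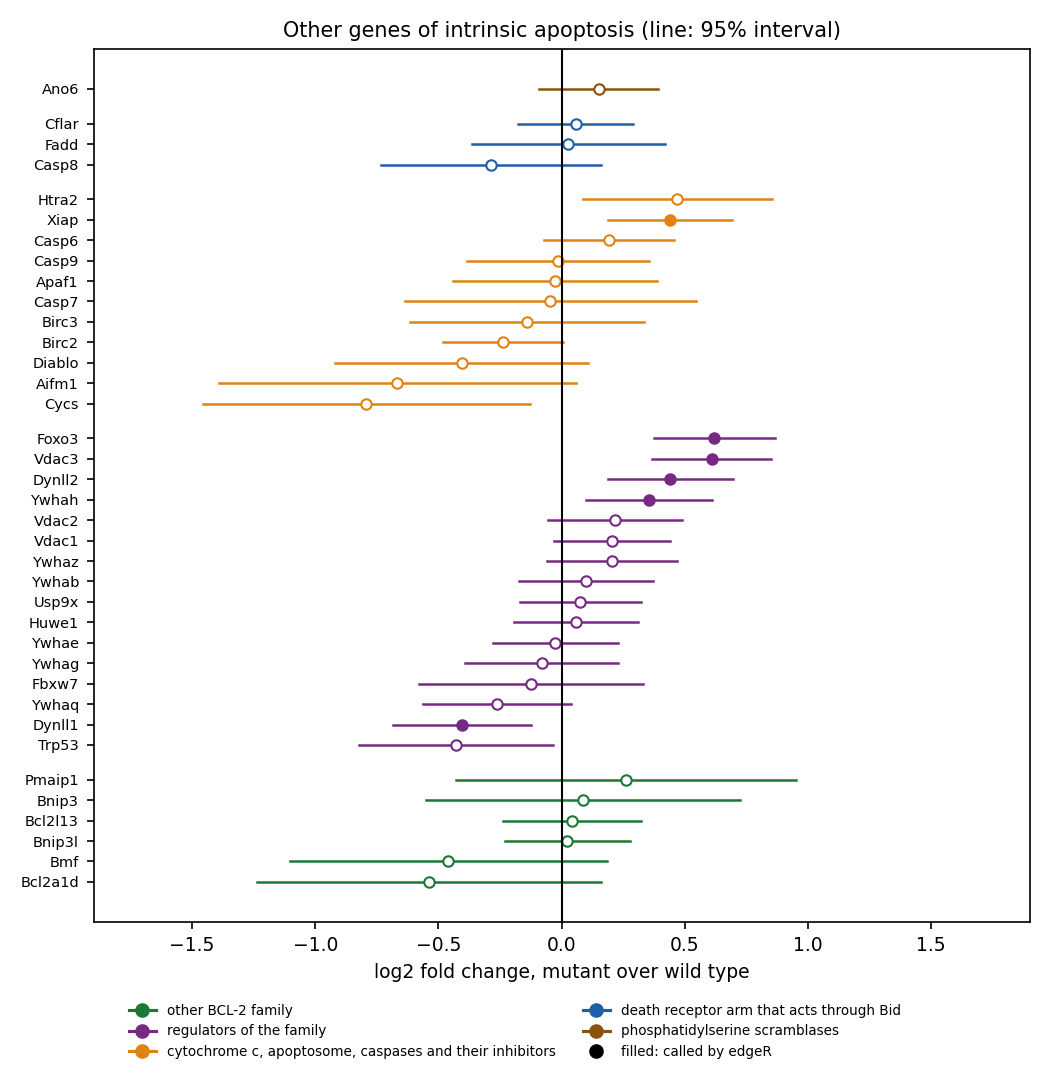
Log2 fold change of 37 of the 38 listed genes of the wider apoptosis list, mutant over wild type, with the 95% interval of each (line) and subgroups by colour. Filled points are the 6 genes called by edgeR, of which Dynll1 alone lies below 0.

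The genes most like each called member over the 6 libraries were sought, among 2793 named genes at a mean level of 10 CPM or more, by Pearson correlation of log2 CPM. This is a description: the 6 points share genotype, batch and scaling. Among the genes closest to Bcl2 were Rpl8, a ribosomal protein gene with pseudogene copies, and the lymphocyte antigen gene Cd52 (r = 0.998 and 0.993). Bcl2l11 was closest to Stip1, Btbd8 and the histone gene H2bc18, which has near-identical copies (0.998, 0.994 and 0.994), and Bcl2l2 to Rasgrp3, Rpl37rt and Peg13 (0.988, 0.982 and 0.980). Bak1 was closest to Fbxw5, the clusterin gene Clu and Pck2 (0.996, 0.994 and 0.993). Bcl2l1 was closest to the deoxycytidine kinase gene Dck, to Crtap and to Tmem170b (0.998 for each).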

How the data were processed

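PolyA RNA of 6 platelet pools was sequenced. Per the file headers, the deposited tables hold each gene's length and its raw count, and the mm10 build, CASAVA 1.8.2, Subread and featureCounts are named in the submitters' processing notes. The sources used here give no settings, strand use or treatment of multi-mapping reads. Totals were 25189231 to 29421549 counts per pool. Of 9822 Entrez identifiers, 9636 were named from RefSeq (GRCm38.p6), 2 from GENCODE and 184 not at all.

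Counts were tested with edgeR 4.0.16 (R 4.3.3; TMM, filterByExpr, robust quasi-likelihood F test, genotype only, two-sided, Benjamini-Hochberg at 0.05), with DESeq2 1.42.0, limma-voom 3.58.1, other scalings and filters, left-out pools and the batch as a block as alternatives. The SE is the log2 fold change divided by the square root of F. Labels tie 1 mutant and 1 wild-type pool to each batch, so the batch pairs them, and deviations from group means correlated at 0.431, 0.271 and 0.482 within batches. No 2 pools of a genotype agreed within sampling noise (mean chi-square per gene at least 14.5). P-values measure the spread between pools. Members, lists and the rule for named genes (members, called list genes, the 3 most alike genes per called member, neighbours within 1 kb) were chosen with earlier results of these data known. Some genes of these lists are not reported here.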

Additional observations from a re-analysis of the deposited data

How the results depend on the processing

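Bcl2, Bcl2l11 and Bak1 were called in the same direction in all 19 alternatives, and Mcl1 was called in 0 of them. The alternative with no low-count filter equals the main fit, because the filter kept all 9822 genes, so it adds nothing. The number of members called ranged from 3 to 7 when a pool or a batch was left out, and without mutant replicate 1, batch 1 or batch 2 the 3 called were Bak1, Bcl2 and Bcl2l11. Over the same fits all genes called ranged from 1005 to 2389, beside 2166 with all pools, and those of the wider apoptosis list from 1 to 9, beside 6. With the batch as a replicate block, edgeR called 3929 genes and 14 of the wider list, and DESeq2 called 2494 genes.

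Log2 fold changes with a pool or a batch left out ran from 0.34 to 0.51 for Bcl2l1, -0.65 to -0.37 for Bcl2l2, -0.28 to -0.15 for Bid and 0.27 to 0.48 for Bad (called without batch 3 or mutant replicate 3). Those of Bax ran from -0.20 to 0.0087 and those of Bbc3 from -0.37 to 0.16, so both changed sign without passing. Bid was called without batch 3 or wild-type replicate 3. Bcl2l2 was not called by DESeq2 (-0.50) or limma-voom (-0.48). With the replicate block Bid was called at -0.18 by edgeR and -0.18 by DESeq2, and Bad at 0.41 by edgeR, and the block changed no other member's call. The difference in the log2 ratio of Bcl2l1 to Bak1 was -0.30 with and without division by length. The causes were not tested. Depth limits Bcl2 and Bad most. Bcl2 had 78 to 213 counts per pool and the fewest of the members in the mutant pools. Bad had the fewest in the wild-type pools, at 127 to 147 counts.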
